A study of Mus musculus with 60 samples.

Results

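The 10 genes described here mark microglia or encode parts of complement C1q, and were followed through 60 brain libraries: Cx3cr1, P2ry12, Tmem119, Csf1r, Aif1, C1qa, C1qb, C1qc, Trem2 and Tyrobp. They were taken by symbol from the deposited tables, which held all 10 among 21999 genes, and all 10 passed the filter on low counts in every fit described here. The libraries were of messenger RNA: each of 20 mice gave 1 from prefrontal cortex (Pfc), 1 from striatum (Str) and 1 from hippocampus (Hip). The mice were wild type (WT) or carried a knockout (KO) of Glo1, which encodes glyoxalase 1, an enzyme that detoxifies methylglyoxal. During weeks 8 to 12 of life their pellets held vitamin B6 (VB6) at 1.4 mg per 100 g (normal diet) or at 5 µg per 100 g (lacking diet). The 4 groups in each region, WT normal, WT lacking, KO normal and KO lacking, held 5 mice each. The labelled VB6 level was 58.25 to 78.09 ng/µl in mice on the normal diet and 2.25 to 5.63 ng/µl on the lacking diet. All KO libraries carried batch number 1 and all WT libraries batch number 2, so a difference between the genotypes and a difference between the batches cannot be told apart, whereas the diets and the regions were compared within a batch. The sex of the mice, the strain and the way in which the KO allele was made are not given in the sources used here.

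Microglia are the resident macrophages of the brain. They survive on signals through the receptor Csf1r, whose ligands Csf1 and Il34 come largely from neurons and glia, and they sense neurons through the fractalkine receptor Cx3cr1 and nucleotides through the purinergic receptor P2ry12. Tmem119 is a surface protein used to tell microglia from blood-derived macrophages, and Aif1 encodes the cytoskeletal protein IBA1, the usual histological marker. Trem2 is a lipid-sensing receptor that signals through the adaptor Tyrobp (DAP12). C1qa, C1qb and C1qc encode the chains of C1q, the recognition unit of the classical complement pathway, which in the brain is made mainly by microglia and takes part in the tagging of synapses for removal. Levels in whole tissue reflect the number of these cells as well as the RNA in each, and fewer cells and less RNA per cell cannot be told apart here.

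Library totals lay between 7640047 and 13928265 counts, and the RNA integrity number (RIN) between 7.6 and 9.3. Glo1 was at 34.2 to 74.6 CPM (counts divided by the library total and scaled to a common size) in the 30 WT libraries and at 0 to 1.01 CPM in the 30 KO libraries, so every library matched its genotype label. Regional identity also matched: the summed level of 6 striatal markers such as Drd1 and Drd2 was 4951 to 6124 CPM in striatum, against at most 143 CPM in the other regions. Among markers of cells that share genes with microglia, 10 markers of border-associated macrophages such as Mrc1 summed to 13.1 to 30.4 CPM per library, 8 of monocytes and neutrophils to at most 8.21 CPM and 8 of lymphocytes to at most 0.762 CPM. The 10 genes studied here summed to 239 to 374 CPM. Choroid plexus markers, led by Ttr, reached 31.3 to 1702 CPM in hippocampus but at most 28.1 CPM in the other regions.

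The genes lie on 7 chromosomes, given here for GRCm38 with GENCODE M21. C1qa (chr4:136895917-136898803), C1qc (chr4:136889804-136893065) and C1qb (chr4:136880129-136886187) form a cluster of 18.7 kb on the minus strand of chromosome 4. P2ry12 (chr3:59216272-59262871, minus strand) lies inside Med12l, a Mediator subunit gene on the opposite strand, and shares 9 exonic bases, 0.353% of its own, with it. Tmem119 is at chr5:113793729-113800516, Tyrobp at chr7:30413760-30417585 and Cx3cr1 at chr9:119901616-120069879. Csf1r lies on a further chromosome. Aif1 (chr17:35170991-35176068) and Trem2 (chr17:48346401-48354147) share chromosome 17 with Glo1 and lie 4.54 and 17.7 Mb from it. Exons of Csf1r overlap the opposite-strand gene Hmgxb3 over 873 bases, 15.1% of its exonic length, and those of Cx3cr1 overlap Gm33858 over 1.73%. Whether reads were counted by strand is not given in the sources used here, so reads in these overlaps could belong to either gene.

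Promoter sequence from RefSeq (GRCm38.p6) was matched for 6 of the 10 genes, and the 250 bases before the start site were searched on both strands for GAGGAA and AGGAAGT. These purine-rich strings lie within GAGGAAGT, the core of the sites bound by PU.1 (Spi1), the transcription factor that defines the macrophage lineage. The promoters of C1qb and Trem2 are shown because, of the 6 windows, only theirs held no annotated exon or UTR. Capitals mark the matches. C1qb holds GAGGAA on its own strand and AGGAAGT on the opposite strand, and Trem2 holds GAGGAA on the opposite strand.
C1qb, chr4:136886201-136886450, minus strand: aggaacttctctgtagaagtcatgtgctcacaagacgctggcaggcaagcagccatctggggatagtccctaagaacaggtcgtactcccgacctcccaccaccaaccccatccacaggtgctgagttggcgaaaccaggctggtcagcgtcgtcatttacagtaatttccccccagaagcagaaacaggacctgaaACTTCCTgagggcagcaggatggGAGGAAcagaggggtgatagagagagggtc
Trem2, chr17:48346151-48346400, plus strand: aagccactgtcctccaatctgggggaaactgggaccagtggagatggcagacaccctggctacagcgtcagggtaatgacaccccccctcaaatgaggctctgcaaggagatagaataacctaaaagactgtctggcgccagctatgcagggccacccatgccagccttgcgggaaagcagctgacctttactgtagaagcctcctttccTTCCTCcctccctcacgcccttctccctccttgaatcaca
GAGGAA was present in 4 of the 6 windows and in 23.3% of all 32851 promoter windows of that length, AGGAAGT in 3 of 6 and 7.69%, and GAGGAAGT in 1 of 6, that of C1qc, and 2.44%. Not all of these windows are plain upstream sequence. Annotated UTR covers all 250 bases of those of P2ry12 and Cx3cr1 and 151 bases of that of C1qc. In the P2ry12 window this UTR is that of Med12l on the opposite strand, and the Aif1 window overlaps an Aif1 exon. These are matches of letters, and binding was not measured.

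The 10 genes kept the same order of mean level in all 3 regions, although some neighbours changed places in single libraries. The RPKM scale divides counts by gene length and library total, so genes are compared on the lengths used. On it P2ry12 stood first in all 60 libraries, at 45.9 ± 8.34 in prefrontal cortex, 49.8 ± 8.12 in striatum and 46.4 ± 7.07 in hippocampus (SD, n = 20 each). C1qb came next, at 15.6 ± 2.84, 17.6 ± 4.88 and 14.0 ± 3.06 RPKM, followed by Cx3cr1 at 13.8 ± 1.79, 15.4 ± 1.96 and 12.6 ± 0.975 RPKM. The ranges of P2ry12 and C1qb did not overlap in any region, whereas those of C1qb and Cx3cr1 did.
C1qa and Csf1r were close neighbours. C1qa was at 11.1 ± 3.18, 12.1 ± 3.57 and 9.99 ± 3.70 RPKM and Csf1r at 10.5 ± 1.79, 11.5 ± 2.16 and 9.00 ± 1.65 RPKM, and C1qa was the higher of the pair in 11, 12 and 13 of the 20 libraries of each region, so their order was not settled. C1qc, at 8.61 ± 1.29, 9.07 ± 2.48 and 8.03 ± 1.97 RPKM, and Tyrobp, at 7.72 ± 1.60, 7.91 ± 1.62 and 6.88 ± 1.84 RPKM, overlapped in the same way. The last 3 ranks were Tmem119 (2.89 ± 0.611, 2.86 ± 0.774 and 2.45 ± 0.591 RPKM), Aif1 (1.5 ± 0.37, 1.3 ± 0.31 and 1.2 ± 0.34 RPKM) and Trem2 (0.748 ± 0.151, 0.897 ± 0.252 and 0.674 ± 0.183 RPKM). Trem2 stood below Aif1 in 20, 18 and 19 of 20 libraries. The length behind its RPKM was 4946 bases, the union of all its annotated exons, against 1088 bases for its longest coding transcript, and this choice lowers its RPKM. The same holds for C1qc (1931 against 1203 bases) and Aif1 (1532 against 875), whereas that of Cx3cr1 (3742 against 4493) is raised. The order of these genes therefore depends on the length used for each.

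**Figure D1:**
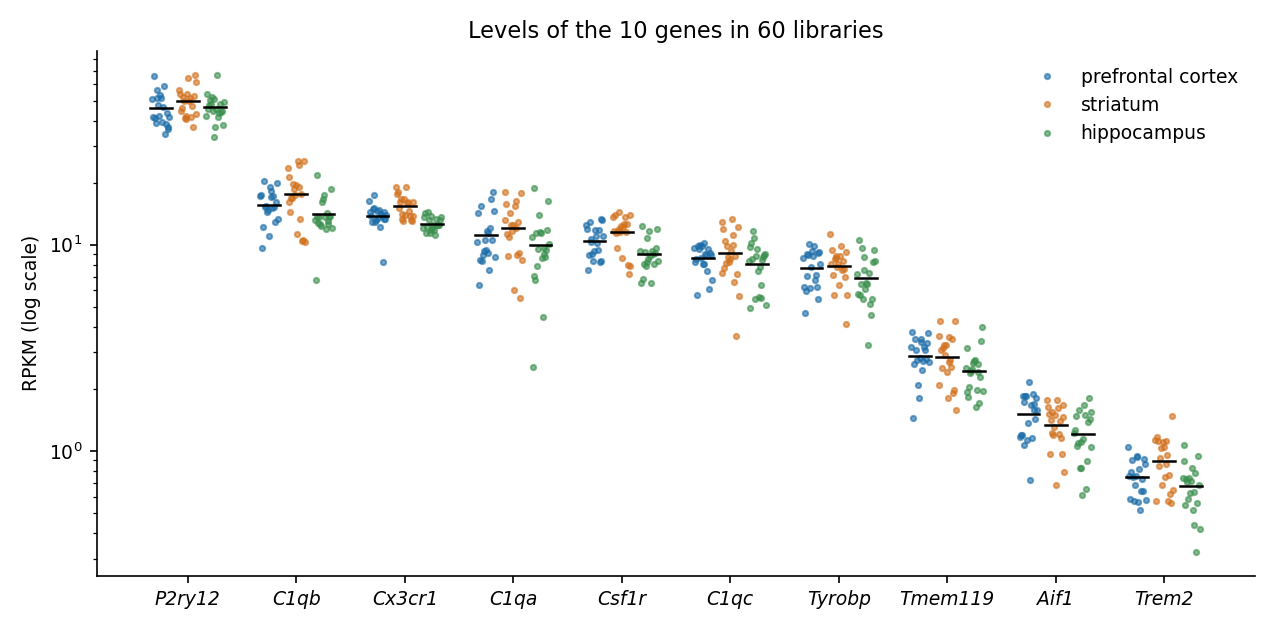
RPKM (log scale) of each of the 10 genes in the 20 libraries of each region; each point is 1 library and the bars are region means. P2ry12 is above all other genes in every region, between 33.3 and 66.9 RPKM. On the gene lengths behind these values Trem2 is lowest, with region means of 0.674 to 0.897.

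Counts behind these levels differed widely, and with them the precision. P2ry12 had 850 to 1800 reads per library, Cx3cr1 356 to 844 and Csf1r 268 to 886, whereas Tyrobp had 20 to 89, Trem2 20 to 95 and Aif1 9 to 37. The coefficient of variation of RPKM over 20 libraries was lowest for Cx3cr1 in hippocampus, 7.71%, and highest for C1qa in hippocampus, 37.0%. The 3 C1q chains did not keep a fixed ratio: C1qa divided by C1qb, per length, had medians of 0.681, 0.673 and 0.689 in the 3 regions but ranged from 0.375 to 1.13 over the libraries.

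Most of the genes had their lowest level in hippocampus and their highest in striatum; P2ry12 was at similar levels in hippocampus and prefrontal cortex, and the mean RPKM of Aif1 and, by a small margin, Tmem119 was highest in prefrontal cortex. In the fit of all 60 libraries with edgeR's quasi-likelihood test, averaging over the 4 groups, 9 of the 10 were lower in hippocampus than in striatum at a Benjamini-Hochberg (BH) adjusted p under 0.05, all but Aif1. Cx3cr1 libraries ranged from 41.5 to 54.0 CPM in hippocampus, from 48.6 to 71.5 CPM in striatum and from 30.8 to 65.0 CPM in prefrontal cortex, so the regions overlapped although striatum was the higher in 20 of 20 mice when set against hippocampus. The steepest differences were those of Trem2, with a log2 fold change of -0.50 ± 0.11 (SE, adjusted p = 0.00011), Csf1r, -0.43 ± 0.07 (adjusted p = 2.7e-07), C1qb, -0.40 ± 0.09 (adjusted p = 0.00015), and Cx3cr1, -0.37 ± 0.05 (adjusted p = 3.8e-10). P2ry12 changed least among the 9, -0.19 ± 0.07 (adjusted p = 0.022), and Aif1 was at -0.22 ± 0.13 (adjusted p = 0.12). The median over the 10 genes was -0.34, against -0.01 over all genes tested. Regions differ in most genes: 66.4% of the 13930 genes tested passed in this comparison and 33.6% were lower. The count is a description of these genes, and whether it sets them apart was not tested. It fell to 4 on library totals alone, as given further on.

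Against prefrontal cortex, 6 of the 10 were lower in hippocampus, where 59.3% of all genes passed and 29.1% were lower: Aif1 (log2 fold change -0.38 ± 0.13, adjusted p = 0.0084), Tmem119 (-0.31 ± 0.10, adjusted p = 0.0074), Csf1r (-0.28 ± 0.07, adjusted p = 0.00059), Tyrobp (-0.23 ± 0.10, adjusted p = 0.032), C1qb (-0.21 ± 0.09, adjusted p = 0.045) and Cx3cr1 (-0.18 ± 0.05, adjusted p = 0.00049). P2ry12, at -0.04 ± 0.07 with an adjusted p of 0.71, had a value near 0. The C1qb call was lost in 19 of 30 alternatives, 13 of them with a single mouse left out, and the Tyrobp call in 12 of 30, 6 of them with a single mouse left out. Striatum exceeded prefrontal cortex for 3 of the 10, Cx3cr1 (0.18 ± 0.05, adjusted p = 0.00044), Trem2 (0.29 ± 0.11, adjusted p = 0.020) and Csf1r (0.15 ± 0.07, adjusted p = 0.046), with 69.9% of all genes called and 35.9% higher. Aif1 had the opposite sign, at -0.16 ± 0.13 (adjusted p = 0.27). Of these 3 calls, that of Csf1r was lost in 17 of 30 alternatives, 12 of them with a single mouse left out, and that of Trem2 in 3. Without mouse 283 (WT, normal diet) only Cx3cr1 passed in that comparison. P2ry12, at 0.15 ± 0.07 (adjusted p = 0.059), turned to -0.01 with the GC-content offset described further on. Within mice the summed CPM of the 10 genes was higher in striatum than in hippocampus in 20 of 20 animals and higher than in prefrontal cortex in 18 of 20.

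**Figure D2:**
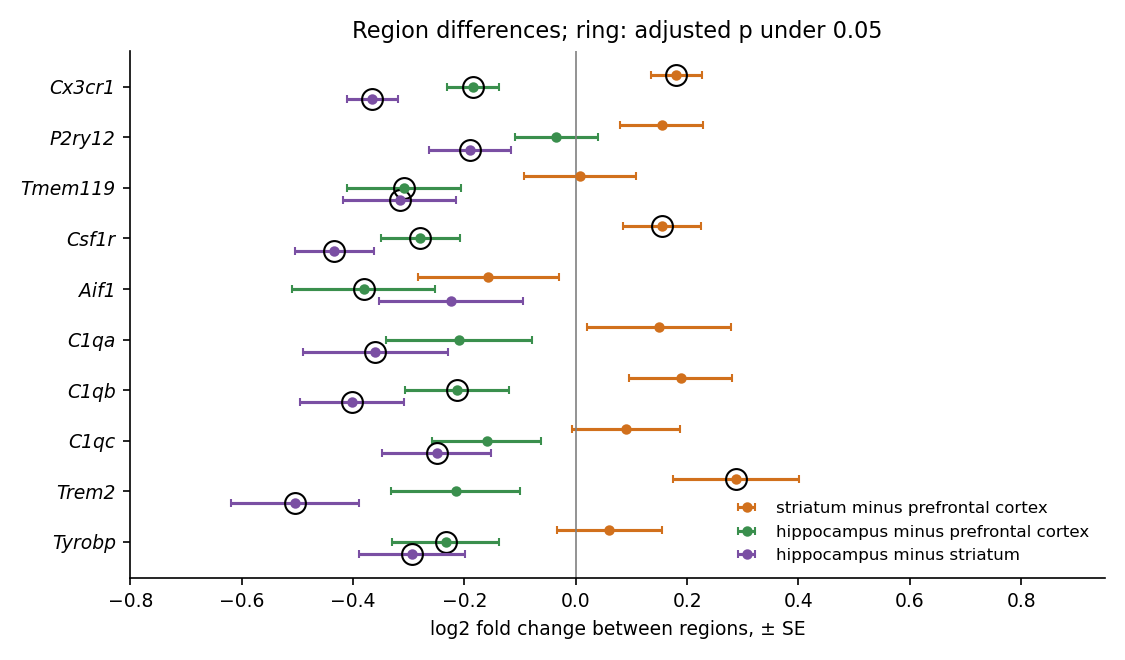
Log2 fold change (± SE) between pairs of regions for each gene, over the 4 groups of 5 mice in each region; rings mark adjusted p under 0.05. The 2 hippocampus contrasts lie below 0 for all 10 genes, from -0.50 to -0.04, and striatum minus prefrontal cortex lies above 0 for 9 (Tmem119 at 0.01) and below it for Aif1, at -0.16.

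The size of the hippocampal difference depended on scaling. With TMM factors, 49.5% of the genes called between hippocampus and striatum were higher in hippocampus, and with library totals alone 61.2% were; against prefrontal cortex these shares were 50.9% and 61.4%. On library totals the median over the 10 genes moved from -0.34 to -0.26 against striatum, with 10 of 10 still below 0 but 4 called, and from -0.21 to -0.16 against prefrontal cortex, with 9 of 10 below 0 and 4 called; P2ry12 turned to 0.02. In WT mice on the normal diet alone, 1 gene was called between striatum and prefrontal cortex (Cx3cr1; 45.9% of all genes were called), 2 between hippocampus and prefrontal cortex (36%) and 6 between hippocampus and striatum (42.1%). These smaller counts moved when 1 mouse was left out: the last fell to 2 without mouse 286 and to 3 without mouse 283, the first to 0 without either and to 2 without mouse 273, and the count against prefrontal cortex to 1 without mouse 272, 273, 286 or 317.

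Other genes of microglia were likewise lower in hippocampus than in striatum. Of 22 further microglial genes, 14 were lower and 0 higher in hippocampus than in striatum, among them Irf8, a transcription factor of the lineage (log2 fold change -0.94 ± 0.09, adjusted p = 1.6e-13), the orphan receptor Gpr34 (-0.44 ± 0.06, adjusted p = 1.9e-10), the lectin Siglech (-0.43 ± 0.06, adjusted p = 6.9e-09) and the protease Ctss (-0.35 ± 0.05, adjusted p = 2.8e-08). Over all genes 33.6% were lower and 32.9% higher in that comparison. Against prefrontal cortex 6 of the 22 were lower and 0 higher, a share of lower genes no larger than the 29.1% over all genes. Between striatum and prefrontal cortex 12 were higher and 3 lower, against 35.9% and 34% over all genes, led by Ly86 (0.48 ± 0.06, adjusted p = 1.2e-09). Of 5 tested markers of border-associated macrophages, 3 were lower and 0 higher in striatum than in prefrontal cortex: Lyve1 (-1.79 ± 0.25, adjusted p = 7.3e-09), Mrc1 (-0.68 ± 0.11, adjusted p = 8.5e-08) and F13a1 (-0.55 ± 0.14, adjusted p = 0.00049). Cd163 (0.34 ± 0.20, adjusted p = 0.12) and Stab1 (0.04 ± 0.11, adjusted p = 0.75) were not called and had positive values. In hippocampus 2 of the 5 were higher than in striatum, Lyve1 (1.41 ± 0.26, adjusted p = 3.4e-06) and Mrc1 (0.32 ± 0.11, adjusted p = 0.0079), and 0 were lower.

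The ligands of these receptors varied by region in different directions. Cx3cl1, the neuronal ligand of Cx3cr1, was lower in hippocampus than in striatum and prefrontal cortex (-0.87 ± 0.06, adjusted p = 5e-20, and -0.85 ± 0.06, adjusted p = 2.8e-19). The pair of Csf1r ligands diverged, Csf1 being higher in hippocampus than in striatum (1.11 ± 0.06, adjusted p = 1.3e-24) and Il34 lower (-0.58 ± 0.08, adjusted p = 9.7e-09). Cd200, a neuronal brake on microglia, was lower than in prefrontal cortex both in striatum (-0.80 ± 0.04, adjusted p = 4e-28) and in hippocampus (-0.40 ± 0.04, adjusted p = 9.8e-15). Of 8 tested genes downstream of Tyrobp, 4 were lower and 1 higher in hippocampus than in striatum, near the 66.4% of all genes called there; the phosphatase Inpp5d was lower (-0.43 ± 0.06, adjusted p = 6.5e-09) and the phospholipase Plcg2 higher (0.30 ± 0.10, adjusted p = 0.0095).

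Complement genes outside C1q went in both directions between regions. Of 18 tested, 8 were higher and 7 lower in hippocampus than in striatum, and 5 were higher and 6 lower than in prefrontal cortex, where 66.4% and 59.3% of all genes were called. Mean RPKM of C3ar1 (0.699 against 0.964), Itgb2 (1.31 against 1.60) and Itgam (4.78 against 5.43) was lower in hippocampus than in striatum, as was that of the C1q chains. C4b, which C1q-bound proteases cleave, was higher in hippocampus than in prefrontal cortex (1.94 ± 0.13, adjusted p = 4.4e-20), as was C3 (3.11 ± 0.37, adjusted p = 7.8e-11), although C3 stayed at or under 2.99 CPM in every library, while Csmd1, a complement inhibitor, was lower (-0.39 ± 0.03, adjusted p = 1.1e-15). Choroid plexus markers differed between regions in the same direction, as given above, and their part in C4b and C3 was not tested. Of 13 tested genes of activated microglia, 4 were higher and 4 lower in hippocampus than in striatum, again near the 66.4% over all genes; Lpl (-0.91 ± 0.07, adjusted p = 3.5e-19) and Igf1 (1.62 ± 0.08, adjusted p = 1.3e-26), which neurons also express, moved in opposite directions. Itgax and Cst7, which mark disease-associated microglia more strictly, were at most 0.954 and 0.312 CPM and at 0 in 19 and 24 of the 60 libraries.

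In the comparison of KO with WT, P2ry12 in prefrontal cortex was the 1 gene of the 10 that passed the test in any region. The KO libraries on the lacking diet stood at 87.8, 98.1, 98.9, 105 and 106 CPM and those on the normal diet at 93.0, 95.2, 108, 111 and 121 CPM. The WT libraries stood at 106, 129.9, 131, 143 and 167 CPM on the lacking diet and at 101, 119, 131, 136 and 150.1 CPM on the normal diet. All 10 KO libraries were below the WT median of 131 CPM, but the genotypes overlapped. The WT libraries at 106 CPM on the lacking diet and at 101 and 119 CPM on the normal diet fell within the KO range. The KO mean was 102 ± 9.65 CPM and the WT mean 131 ± 19.7 CPM (SD, n = 10 each), a log2 fold change over both diets of -0.38 ± 0.08 (SE; 95% interval -0.54 to -0.22; edgeR quasi-likelihood test, adjusted p = 0.017). Among all 13223 genes tested in this region 0.673% were called, 73 lower and 16 higher. The adjusted p stayed under 0.05 when any 1 of the 20 libraries was left out, with values of -0.42 to -0.32 and adjusted p of 0.0025 to 0.049. Library totals in this region averaged 11785690 and 12063601 counts in KO (lacking and normal diet) and 9886281 and 10183628 in WT. The part of depth in the P2ry12 value was not tested.

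P2ry12 was not called in the other regions. In striatum the KO libraries lay between 95.3 and 170.2 CPM and the WT libraries between 105 and 164 CPM, with a log2 fold change of -0.01 ± 0.11 (95% interval -0.23 to 0.22, adjusted p = 0.99). In hippocampus they lay between 84.7 and 128 and between 95.3 and 170.3 CPM, with -0.14 ± 0.09 (95% interval -0.32 to 0.05, adjusted p = 1). With edgeR's test of the difference itself, fitted over 60 libraries, the genotype effect in striatum exceeded that in prefrontal cortex by 0.37 ± 0.15 (adjusted p = 0.50), and that in hippocampus by 0.23 ± 0.15 (adjusted p = 0.89). Neither passed, and 0% and 0.00718% of all genes did, so the effect is not shown to be particular to prefrontal cortex. On the lacking diet alone the KO value in prefrontal cortex was -0.48 ± 0.11 (adjusted p = 0.075) and on the normal diet -0.28 ± 0.11 (adjusted p = 0.88); the interaction of genotype and diet was -0.20 ± 0.16 (adjusted p = 1). On the lacking diet the value was called with DESeq2. With edgeR it was called without the low-count filter, with RIN as a covariate, with the GC-content offset, and when WT mouse 226 or 283 was left out. On the normal diet 0.121% of all genes were called and on the lacking diet 0.234%.

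**Figure D3:**
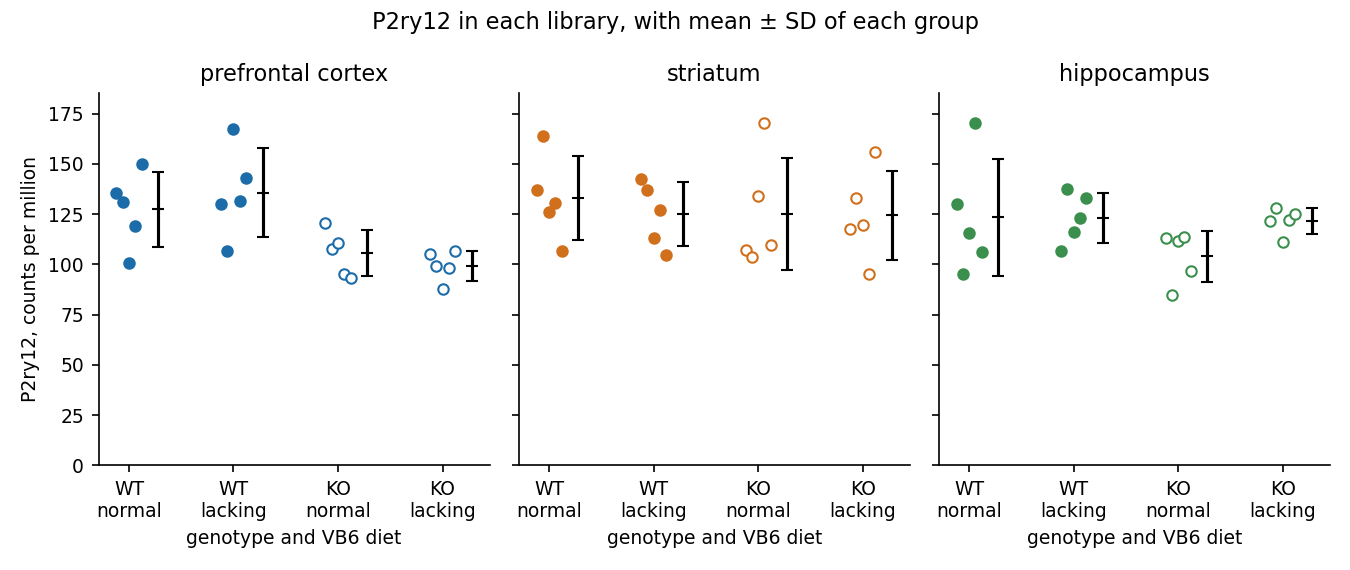
P2ry12 in CPM in each of the 60 libraries, by region, genotype and diet; filled points are WT, open points KO, and bars are the mean ± SD of 5 libraries. In prefrontal cortex the KO libraries sit between 87.8 and 121 CPM and the WT libraries between 101 and 167 CPM; in hippocampus they span 84.7 to 128 and 95.3 to 170.3 CPM, and in striatum 95.3 to 170.2 and 105 to 164 CPM.

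Med12l, which encloses P2ry12 on the other strand, was at 71.1 ± 3.72 CPM in KO and 68.8 ± 4.21 CPM in WT prefrontal cortex (SD, n = 10 each), so it did not share the lower KO level of P2ry12. Of 8 astrocyte markers, 1 was called in the same comparison: Slc1a3, the astrocytic glutamate transporter, was lower in KO prefrontal cortex (-0.33 ± 0.06, adjusted p = 0.0068). The other 7 were not called, and over the 8 markers 7 values were negative with a median of -0.14. Their summed level was 2010 to 2552 CPM in KO and 2223 to 2961 CPM in WT, of which Slc1a3 alone made up 1160 ± 105 and 1436 ± 145 CPM. The part of astrocytes or of the batch in the P2ry12 value was not tested. Among 21 other microglial genes tested in prefrontal cortex, 18 had negative and 3 positive values with a median of -0.10, 9 had an unadjusted p under 0.05, as did 1867 of all 13223 genes, and 0 passed adjustment with edgeR; the nearest relative of P2ry12, P2ry13, stood at -0.22 ± 0.09 (adjusted p = 0.27). Laptm5, a lysosomal protein of blood-lineage cells, fell in KO on the lacking diet (-0.47 ± 0.10, adjusted p = 0.038), and over both diets had -0.28 ± 0.07 (adjusted p = 0.057).

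The other 9 genes were not called in prefrontal cortex. Cx3cr1 stood at 48.9 ± 6.85 CPM in KO and 54.7 ± 5.38 CPM in WT (log2 fold change -0.18 ± 0.07, unadjusted p = 0.023, adjusted p = 0.27), and C1qa went the other way, at 12.9 ± 3.64 and 10.1 ± 2.35 CPM (0.32 ± 0.14, unadjusted p = 0.032, adjusted p = 0.30). C1qc, encoded beside C1qa, was at -0.16 ± 0.09. C1qb (-0.02 ± 0.11), the other gene of the cluster, Csf1r (-0.02 ± 0.09), Trem2 (-0.02 ± 0.15) and Tmem119 (-0.05 ± 0.14) were near 0, Tyrobp was at -0.13 ± 0.13 and Aif1 at 0.14 ± 0.18. P2ry12 made up 38.7% ± 4.77 of the summed counts of the 10 genes in KO and 43.8% ± 5.72 in WT prefrontal cortex (SD, n = 10 each), with ranges that overlapped. The summed level of the 10 genes was 239 to 294 CPM in KO and 278 to 321 CPM in WT prefrontal cortex, and P2ry12 is the gene with the most reads in it.

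In striatum all 10 genes had a negative KO value, with a median of -0.20 against -0.00 over all genes, but 0 passed with edgeR, DESeq2 or limma, where 0.203% of genes were called with edgeR. C1qc (-0.33 ± 0.15), C1qb (-0.30 ± 0.14) and Cx3cr1 (-0.19 ± 0.06) had unadjusted p of 0.035, 0.042 and 0.0058, each with an adjusted p of 0.74. Before adjustment 769 of all 13311 genes were under 0.05 in this comparison with edgeR. Cx3cr1 lay between 48.6 and 60.1 CPM in KO and between 52.1 and 71.5 CPM in WT, so that the genotypes overlapped. The log2 fold changes of all genes in this comparison ran with the GC content of their transcripts (Spearman -0.528 over 13015 genes, which are not independent), and 9 of the 10 genes are above the median GC content of all genes, 49.99%; P2ry12, at 38.6%, is below it. With a GC-content offset, an alternative added after the data had been seen, the striatal values of these 3 genes were -0.25, -0.22 and -0.18 and Tmem119 turned from -0.05 to 0.05. In hippocampus values ran from -0.15 for Trem2 to 0.08 for C1qa, 0 genes had an unadjusted p under 0.05 and 0.164% of all genes were called. Within single diets 0 of the 10 were called by edgeR, DESeq2 or limma in these regions. On the normal diet 0.0601% of all genes were called in striatum and 0.0299% in hippocampus. There 1 of the 10 in each region had an unadjusted p under 0.05, as did 324 of all 13311 genes in striatum and 1002 of 13393 in hippocampus. On the lacking diet 0.128% and 0.0672% of all genes were called, and 1 of the 10 in striatum and 0 in hippocampus had an unadjusted p under 0.05, as did 610 and 806 of all genes.

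**Figure D4:**
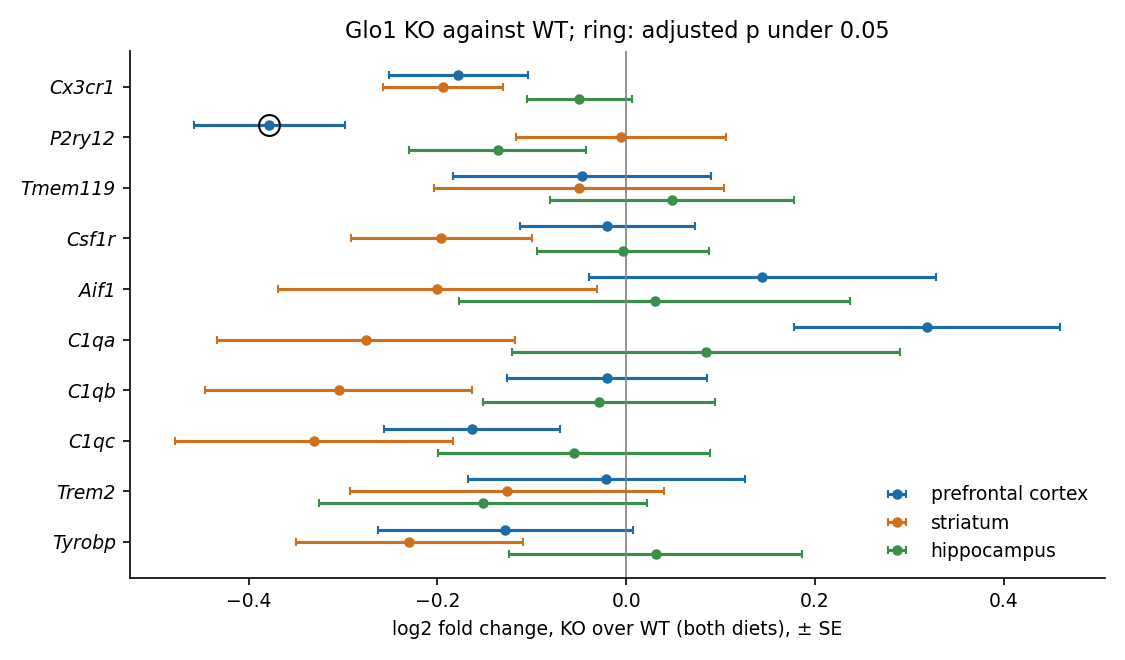
Log2 fold change of KO over WT (both diets, 10 against 10 mice) with SE for each gene in each region; the ring marks adjusted p under 0.05. P2ry12 in prefrontal cortex, at -0.38, is the 1 ringed value, and the striatal values all lie below 0.

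The VB6-lacking diet left the 10 genes without a called difference in any region. Averaged over genotypes, log2 values ran from -0.20 (Tyrobp) to 0.04 (Tmem119) in prefrontal cortex, from -0.12 (C1qb) to 0.07 (Tmem119 and Cx3cr1) in striatum and from -0.20 (Tmem119) to 0.12 (P2ry12) in hippocampus, and 0 of the 10 had an unadjusted p under 0.05 in any of the 3. With edgeR 0% of all genes were called for diet, and DESeq2 and limma also called 0 of the 10. The intervals limit what could have been missed: P2ry12 in prefrontal cortex had -0.00 (95% interval -0.16 to 0.16) and Cx3cr1 in hippocampus 0.11 (-0.00 to 0.22), whereas C1qa in hippocampus allowed changes down to -0.56. Within the genotypes edgeR made no call for diet, and of the 10 genes only Tmem119, in KO hippocampus, fell under 0.05 before adjustment (log2 fold change -0.50 ± 0.18, adjusted p = 0.72). So did 878 of all 13393 genes in that comparison.

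KO mice on the lacking diet were also set against WT mice on the normal diet, the pair of groups that differ in both factors. P2ry12 in prefrontal cortex had -0.38 ± 0.11 (adjusted p = 0.13), and 0 of the 10 were called in any region, where 0.28%, 0.0826% and 0.0149% of all genes were. This comparison shares its libraries with those above.

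In hippocampus the values of the KO effect differed in sign between the diets, but the interaction did not pass the test. With KO minus WT on the normal diet, 7 of the 10 values were positive, and on the lacking diet 9 of 10 were negative. The interaction was negative for 9 of the 10, with a median of -0.40 against -0.01 over all genes. Tyrobp (-0.71 ± 0.31) and Tmem119 (-0.59 ± 0.26) had unadjusted p of 0.032 and 0.031 with edgeR and adjusted p of 0.52. Before adjustment 1265 of all 13393 genes were under 0.05 in this test, and after it 0 genes were called by edgeR, DESeq2 or limma. Tmem119 illustrates the values: KO libraries stood at 5.29, 5.77, 6.18, 7.91 and 9.23 CPM on the normal and at 3.93, 4.22, 4.52, 4.74 and 6.10 CPM on the lacking diet. WT libraries stood at 3.77, 4.55, 5.58, 6.34 and 6.38 CPM on the normal and at 4.47, 5.51, 5.66, 5.83 and 7.29 CPM on the lacking diet, and all groups overlapped. P2ry12 was again opposite, with 0.29 ± 0.19. Over all genes the interaction ran with GC content (Spearman -0.584 over 13093 genes).

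The 10 genes did not move as one block among mice. After each library's group mean was taken away, C1qb (Pearson r = 0.82), Csf1r (0.76), Tmem119 (0.68), C1qa (0.60) and Tyrobp (0.51) followed the mean of the other 9 over the 60 libraries, C1qc (0.40), Trem2 (0.35), Cx3cr1 (0.18) and Aif1 (0.13) less so, and P2ry12 ran against it (-0.63). These libraries come from 20 mice and share the steps of their preparation, so r is a description. The 10 non-members most alike were Palm, Prelid1, Kcnj4, Aes, Brsk1, Eef2, Gstm1, Cox4i1, Dlgap3 and Aldoc, with r of 0.83 to 0.85, and none of them is in a microglial list. The 22 other microglial genes had a median r of 0.25, against 0.02 over all 13920 non-members.

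GC content ran with this pattern. Each library was given a GC slope, the change in log2 CPM (group means removed) per percentage point of transcript GC. Over 60 libraries the slope had r = 0.85 (Spearman 0.787) with the mean of the 9 genes other than P2ry12 and r = -0.78 (Spearman -0.754) with P2ry12; without the 2 libraries farthest from the median slope r was 0.82 and -0.76. In the hippocampus of mouse 226, the striatum of mouse 273 and the prefrontal cortex of mouse 241, all WT, the slope was lowest and P2ry12 stood 0.26, 0.39 and 0.37 above its group mean on the log2 scale while the other 9 stood 0.36, 0.43 and 0.38 below theirs. The slope also ran with RIN (r = -0.42 after group means were removed). When the GC trend was taken from each library, r of P2ry12 with the other 9 moved from -0.63 to -0.08, and the non-member most alike became the microglial protease Ctss (r = 0.73). Those ranked 2 to 10, from Palm (r = 0.64) to Ppia (r = 0.61), are in no microglial list. The median r of the 10 genes, each against the other 9, moved from 0.45 to 0.23. That of the 22 other microglial genes moved from 0.25 to 0.30. The KO value of P2ry12 in prefrontal cortex was -0.34 ± 0.06 with the GC-content offset (adjusted p = 0.00069), and -0.32 ± 0.07 without mouse 241 (adjusted p = 0.032).

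**Figure D5:**
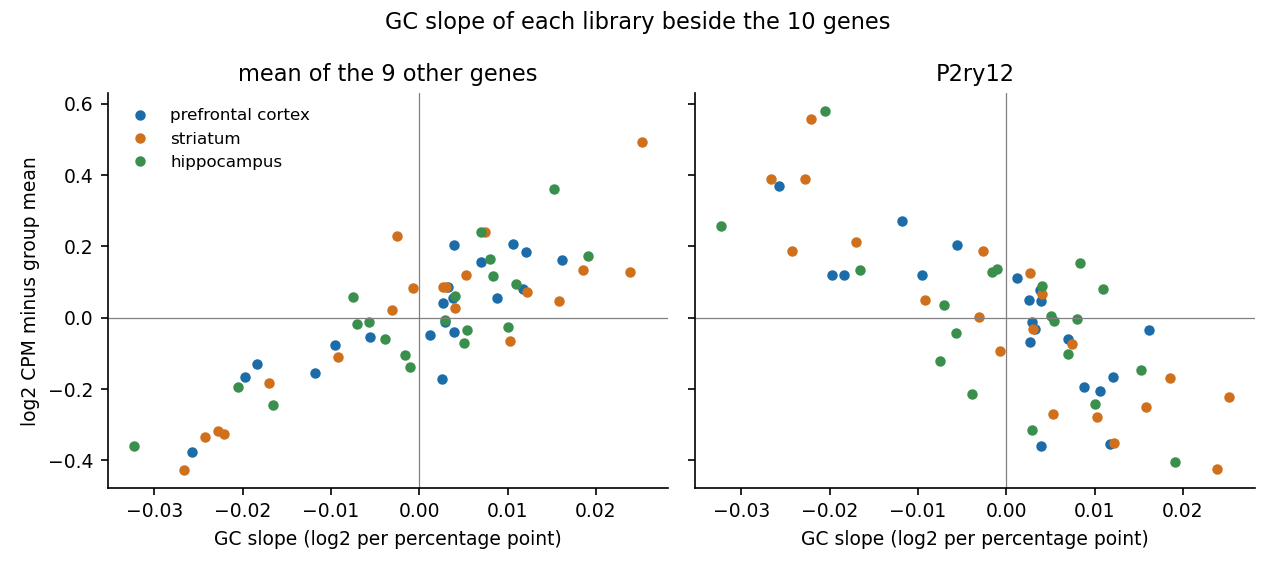
GC slope of each of the 60 libraries (change in log2 CPM per percentage point of transcript GC, group means removed) against the mean of the 9 genes other than P2ry12 (left) and against P2ry12 (right), as log2 CPM minus the group mean; colours mark regions. The 9 genes rise with the slope (r = 0.85) and P2ry12 falls (r = -0.78).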

How the data were processed

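The authors deposited raw counts per gene and RPKM values for 60 libraries of poly(A) RNA (2 µg input, single reads of 75 bases). Per the submitters' processing notes, STAR 2.7.1a, HTSeq 0.9.1 and the build mm10 were used; the annotation and the strand setting are not given in the sources used here. Deposited RPKM values equal counts scaled by a whole-number gene length and the library total. No columns were left unmatched (0).

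Each region (20 libraries, 4 groups) and all 60 libraries (12 groups) were fitted to the counts with edgeR 4.0.16 in R 4.3.3 (TMM factors, filterByExpr at 10 counts per library and 15 in all, quasi-likelihood F-test, two-sided). P-values were BH-adjusted over all genes tested (13223, 13311, 13393 and 13930) at a threshold of 0.05. SE is the log2 fold change divided by the root of F; intervals are the value ± 2 SE. CPM in the text are counts per library total. Total counts limit precision for genes of few reads. Replicate numbers are mouse numbers, which pair the regions of 1 animal; residuals of the same mouse correlated by 0.0468 on average (60 pairs), other mice of a group by -0.0111. Mice are separate animals, and no pair of libraries agreed within sampling noise (chi-square per gene at least 1.97).

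Alternatives were DESeq2 1.42.0, limma 3.58.1 on log2(RPKM + 1 or 0.1), other scalings and filters, RIN, each mouse left out, the mouse as a block and, added after seeing the data, a GC-content offset (lowess span 0.3). The fit was tested on simulated data. All 10 genes are named; of 5 pathway lists, up to 4 genes with the smallest p past the threshold; and the 10 non-members most alike. The members and lists were chosen with earlier results of these data known.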

Additional observations from a re-analysis of the deposited data

Results flagged for a closer look

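In 4 of 120 combinations of gene and group of 5 mice, 1 library lay apart from its group by Dixon's criterion (gap over range above 0.71), where chance alone gives about 6. Cx3cr1 was at 60.1 CPM in the striatum of mouse 390 (KO, normal diet), with the other 4 libraries at 48.6 to 49.9 CPM. Csf1r was at 42.1 CPM in the striatum of mouse 273 (WT, normal diet), against 59.6 to 66.4 CPM. C1qb was at 10.5 CPM in the prefrontal cortex of mouse 241 (WT, lacking diet), against 16.6 to 19.0 CPM. C1qc was at 10.5 CPM in the hippocampus of mouse 267 (KO, normal diet), against 16.8 to 17.4 CPM. The first 3 of these libraries had GC slopes of 0.0253, -0.0267 and -0.0258 log2 CPM per percentage point, and the part of GC content in their levels was not tested.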

How the results depend on the processing

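The KO value of P2ry12 in prefrontal cortex was -0.40 to -0.34 over 8 alternatives (adjusted p 0.00069 to 0.037). All 20 fits that left out 1 library called it. Counts of the 10 genes called did move elsewhere, and the cause was not tested. For KO against WT on the lacking diet in prefrontal cortex the count was 1 in place of 0 (P2ry12) with DESeq2, no low-count filter, RIN as a covariate or the GC-content offset, and 0 to 1 with a library left out. KO lacking against WT normal in that region gave 1 with the GC-content offset.

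Between striatum and prefrontal cortex, over the 4 groups, 1 was called with limma on log2(RPKM + 0.1) and 6 with the GC-content offset, with or without the mouse as a replicate block, against 3; leaving out 1 mouse gave 1 to 4. In WT on the normal diet RIN, the GC-content offset and that offset with the replicate block each gave 3 against 1, and leaving out a mouse 0 to 2. Between hippocampus and prefrontal cortex limma at either pseudocount and RIN gave 3 against 6 (4 to 7 without a mouse). In WT on the normal diet limma at either pseudocount, library totals, no filter and RIN gave 1 against 2 (1 to 2). Between hippocampus and striatum limma at either pseudocount and library totals gave 4 against 9 (7 to 9), and WT on the normal diet gave 2 to 7 against 6. The replicate block by itself moved no count of the 10 genes by over 1.5 times. Of the 10 non-members most alike, 0 remained with group means kept and 4 with the GC trend removed.

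Some values changed sign, none of them past the threshold before or after; P2ry12 between striatum and prefrontal cortex, at 0.15, was the farthest from 0. In prefrontal cortex, KO values under limma at pseudocounts 1 and 0.1 and with RIN were 0.015, 0.017 and 0.019 for C1qb and 0.0053, 0.021 and 0.037 for Trem2, and with RIN 0.019 for Csf1r. In hippocampus the same 3 gave 0.0054, 0.0070 and 0.048 for Csf1r and 0.0058, 0.0095 and 0.026 for C1qb. Tmem119 in striatum was 0.049 with the GC-content offset. Striatum minus prefrontal cortex for Tmem119 was -0.022 and -0.032 with limma, -0.011 on library totals, -0.00044 with a filter of 1 CPM and -0.0028 with the replicate block; for P2ry12 it was -0.013 with the GC-content offset and -0.016 with that and the replicate block. Hippocampus minus prefrontal cortex for P2ry12 was 0.020 and 0.020 with limma and 0.022 on library totals.

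With 1 library left out, KO values ran in prefrontal cortex from -0.066 to 0.019 (Csf1r), -0.072 to 0.016 (C1qb), -0.072 to 0.057 (Trem2) and -0.12 to 0.017 (Tmem119). In striatum they ran from -0.088 to 0.045 (P2ry12) and -0.14 to 0.016 (Tmem119). In hippocampus they ran from -0.032 to 0.24 (C1qa), -0.043 to 0.087 (Tyrobp), -0.050 to 0.054 (Csf1r), -0.11 to 0.077 (C1qb), -0.046 to 0.13 (Aif1), -0.13 to 0.0014 (C1qc) and -0.015 to 0.087 (Tmem119). Striatum minus prefrontal cortex for Tmem119 ran from -0.056 to 0.067.

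The number of all genes called in KO prefrontal cortex over both diets was 89 and ran from 64 to 242 over alternatives, falling to 46 without KO mouse 381 and rising to 390 without WT mouse 226. Low counts limit the precision of Aif1, Trem2 and Tyrobp. Genotype and batch number cannot be told apart.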
